A study of Mus musculus with 9 samples.

Results

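Of the genes that make, export or sense prostaglandins and leukotrienes, 10 are described here in innate lymphoid cells (ILCs) of mouse skin: Ptgs1, Ptgs2, Hpgds, Alox5, Alox5ap, Ltc4s, Ptger4, Ptgir, Ptgdr2 and Cysltr1. They were chosen by symbol from the known pathway, and 9 of the 10 were measured, with 1 probe set each, among 19752 genes that carry a symbol of their own on the array (24922 probe sets in all). Ptgs1 was not analysed here. The 8 members other than Hpgds passed the filter on dim probe sets and entered the tests. Hpgds averaged an intensity of 40.4 over the 9 arrays. On the scale of the filter, its mean log2(intensity + 1) was 5.32, just under the limit of 5.41 (an intensity of about 41.6).

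Both lipid families start from arachidonic acid, which phospholipases release from membranes. Cyclooxygenases turn it into the precursor of the prostaglandins, while 5-lipoxygenase, helped by its activating protein FLAP, turns it into the precursor of the leukotrienes. Group 2 ILCs, which are abundant in skin, are known to carry receptors for prostaglandin D2 and for cysteinyl leukotrienes, which raise their activity, and for prostacyclin and prostaglandin E2, which can lower it. Mast cells are known as a rich source of prostaglandin D2 and cysteinyl leukotrienes in the same tissue.

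The cells came from the skin of female B6 mice with 1 Ccr10 allele replaced by EGFP in every group, which makes cells that express CCR10 green. CCR10 is a chemokine receptor of skin-homing lymphocytes. They were sorted as CD45.2+, CD3- and lineage-negative cells, in a GFP+ and a GFP- fraction. The groups were Rag1-/- CCR10+/EGFP GFP+ cells (2 arrays), Rag1-/- CCR10+/EGFP GFP- cells (3 arrays), CCR10+/EGFP GFP+ cells with intact Rag1 (2 arrays, called Rag1-sufficient here) and Rag1-sufficient CCR10+/EGFP GFP- cells (2 arrays). Rag1-/- mice lack T and B cells, since Rag1 is needed to rearrange antigen receptor genes. The sources used here give no ages, treatments or pooling of the mice, and nothing in them ties each replicate to a mouse of its own. The spread behind the p-values is that between these samples and may be technical.

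Each array gave 1 deposited intensity per probe set, and the medians of the 9 arrays ran from 74.1 to 77.6. Arrays of the same group had rank correlations of 0.981 to 0.992, and precision is limited by the small number of arrays. The ILC markers Id2, at 6727 to 7905, Il7r, at 2566 to 3806, and Gata3, at 2263 to 4017, were high on all 9 arrays. Not all of the 11 listed ILC markers were bright. Arg1 had group means of 55.2 to 57.4. Klrg1 averaged 30.9 in Rag1-/- GFP+ and 40.9 in Rag1-sufficient GFP+ cells, both under the filter limit. It averaged 73.8 in Rag1-/- GFP- and 89.4 in Rag1-sufficient GFP- cells. Ccr10 itself, the gene behind the sort, measured 96.5 to 148 in Rag1-/- GFP+ cells and 103 to 125 in Rag1-/- GFP- cells, and 130 to 163 in Rag1-sufficient GFP+ cells and 126 to 129 in Rag1-sufficient GFP- cells. Rag1 was under the filter limit everywhere, at 28.4 to 31.4, and so cannot check the genotype.

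Markers of mast cells, which the sort's exclusion panel did not name, differed strongly between the groups. The summed intensity of 13 such markers was 5046 and 1475 on the 2 Rag1-/- GFP+ arrays and 4967 to 6310 on the Rag1-/- GFP- arrays. It was 1025 and 1133 on the Rag1-sufficient GFP+ arrays and 10805 and 11001 on the Rag1-sufficient GFP- arrays. The 2 Rag1-/- GFP+ arrays thus stood apart from each other, and Cpa3, a mast cell protease gene, measured 2085 on one and 19.9 on the other. In Rag1-sufficient GFP- cells the sum was mostly Cpa3, Mcpt4 and Kit, at means of 4949, 2554 and 1382. In Rag1-sufficient GFP+ cells its largest part was Kit, at a mean of 532. Kit averaged 1130 in Rag1-/- GFP+ and 1301 in Rag1-/- GFP- cells. Tpsab1 was flat, with group means of 40.1 to 43.1. Of the 13 markers, 3 averaged under the filter limit in Rag1-/- GFP+ cells and 3 in Rag1-/- GFP- cells, against 7 in Rag1-sufficient GFP+ cells and 0 in Rag1-sufficient GFP- cells. Basophil and eosinophil markers were dim in all 4 groups, with 6 of 7 under the limit in each, and neutrophil markers were under it in 5 of 5.

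Ptgs2, the inducible cyclooxygenase, was the only member whose level passed the test in any comparison. It was low in Rag1-sufficient GFP+ cells and higher in the other 3 groups. Its intensity was 310 and 398 on the Rag1-/- GFP+ arrays and 362, 223 and 263 on the Rag1-/- GFP- arrays. It was 124 and 110 on the Rag1-sufficient GFP+ arrays and 317 and 284 on the Rag1-sufficient GFP- arrays. The 2 Rag1-sufficient GFP+ arrays lay below all 7 others, which overlapped among themselves. Group means were 354 ± 62.0 (SD, n = 2) in Rag1-/- GFP+, 283 ± 71.3 (SD, n = 3) in Rag1-/- GFP-, 117 ± 9.30 (SD, n = 2) in Rag1-sufficient GFP+ and 301 ± 23.4 (SD, n = 2) in Rag1-sufficient GFP- cells. From high to low the order was Rag1-/- GFP+, Rag1-sufficient GFP-, Rag1-/- GFP- and Rag1-sufficient GFP+, and among the first 3 neighbouring means differed by less than the larger SD of the pair.

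**Figure D1:**
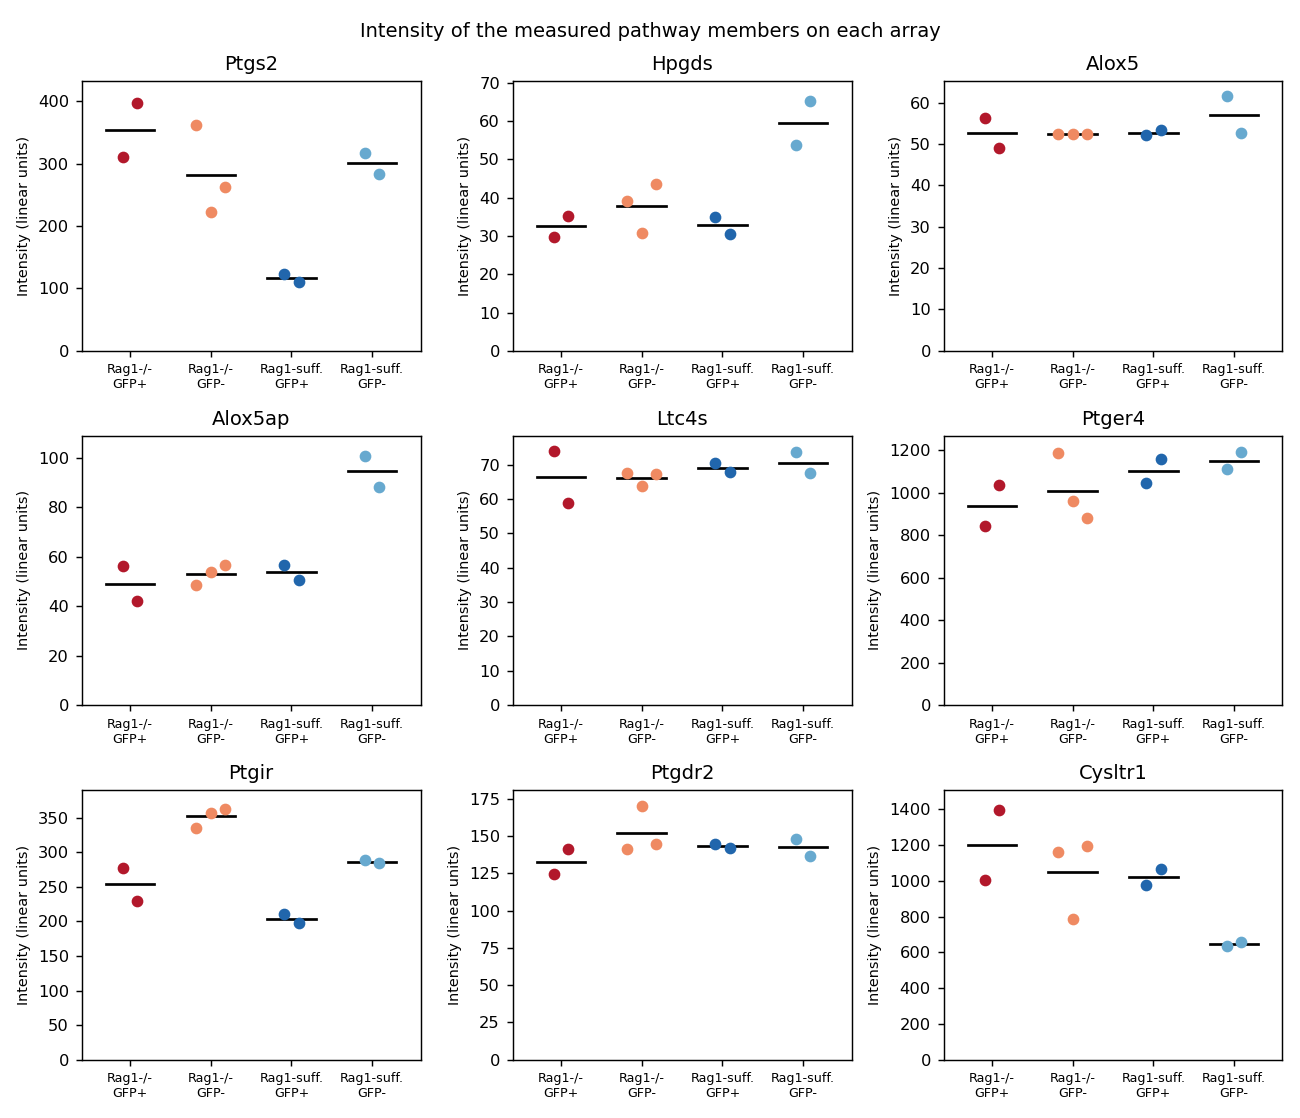
Intensity (linear units, axis from 0) of the 9 measured members on each of the 9 arrays, with 1 point per array and a line at the group mean. Ptgs2 was lowest on the 2 Rag1-sufficient GFP+ arrays (124 and 110), while Alox5ap and Hpgds were highest on the 2 Rag1-sufficient GFP- arrays.

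The first question the design poses is how cells with and without the CCR10 reporter differ. In Rag1-sufficient cells, Ptgs2 fell by 1.35 ± 0.23 (SE) on the log2 scale in GFP+ against GFP- cells, which is 2.56-fold lower, with an adjusted p of 0.0420 (limma, Benjamini-Hochberg over 17445 probe sets). Differences are of log2(intensity + 1), which understates changes of dim genes. It was 1 of 8 tested members called in this comparison and 1 of 8 called lower, against 0.803% of all probe sets called in either direction and 0.47% called lower. The 8 differences had a median of -0.09, beside 0.01 over all probe sets. An unadjusted p under 0.05 (limma) was found for 4 of the 8 and for 2264 of all 17445 probe sets.

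In Rag1-/- cells the same comparison gave a Ptgs2 difference of 0.34 ± 0.21 (SE), with an adjusted p of 0.689. None of the members was called there (0 of 8, limma), nor was any probe set of the array (0.0%). The unadjusted p was under 0.05 for 1 member, Ptgir, and for 1098 of all 17445 probe sets. The difference between the 2 gate effects, Rag1-/- minus Rag1-sufficient, was 1.70 ± 0.31 (SE) for Ptgs2 with an adjusted p of 0.143, so a difference between the genotypes did not pass the test. In that interaction 0 of 8 members and 0.0% of all probe sets were called by limma. The unadjusted p was under 0.05 for 2 members, Ptgs2 and Alox5ap, and for 2378 of all 17445 probe sets. Without Rag1-/- GFP+ replicate 2, the array with a mast marker sum of 1475, that group held only 1 array. The interaction was then 0.88 for Alox5ap and 1.52 for Ptgs2. Over all fits with a single array left out, it ran from 0.47 to 0.88 for Alox5ap and from 1.52 to 1.89 for Ptgs2.

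The second question is what the loss of Rag1 changes in each fraction. In GFP+ cells, Ptgs2 rose by 1.58 ± 0.23 (SE) on the log2 scale in Rag1-/- against Rag1-sufficient cells, 2.99-fold, with an adjusted p of 0.0419. This was 1 of 8 members called, and the one called was higher, against 0.246% of all probe sets called and 0.0516% called higher. The members' median difference was -0.03, beside -0.02 over all probe sets. In GFP- cells Ptgs2 differed by -0.12 ± 0.21 (SE) between Rag1-/- and Rag1-sufficient cells, with an adjusted p of 0.799, and its arrays overlapped. No member was called in GFP- cells (0 of 8, limma, against 0.143% of all probe sets), where Alox5ap and Cysltr1 had an unadjusted p under 0.05. So had 3014 of all 17445 probe sets.

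Both Ptgs2 calls rest on the same 2 Rag1-sufficient GFP+ arrays, so they are not separate evidence. The lower level against GFP- cells was past the threshold in 9 of 17 alternative settings and the higher level in Rag1-/- GFP+ cells in 4 of 17, while the estimates stayed between -1.43 and -1.25 and between 1.40 and 1.76. Without a filter on dim probe sets the adjusted p was 0.0594 and 0.0651. Without Rag1-sufficient GFP+ replicate 1 it was 0.207 and 0.224, and without replicate 2 it was 0.262 and 0.365. Leaving out a Rag1-sufficient GFP- array ended both calls too (0.260 and 0.116 without replicate 1, 0.254 and 0.117 without replicate 2), as did Rag1-/- GFP- replicate 2 (0.0539 and 0.0588) and replicate 3 (0.0614 and 0.0768). The Rag1 call in GFP+ cells also ended without Rag1-/- GFP+ replicate 1 (0.0992) or replicate 2 (0.0757), without the intensity trend (0.0561), with array weights (0.0870) and with only the groups compared (0.560).

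**Figure D2:**
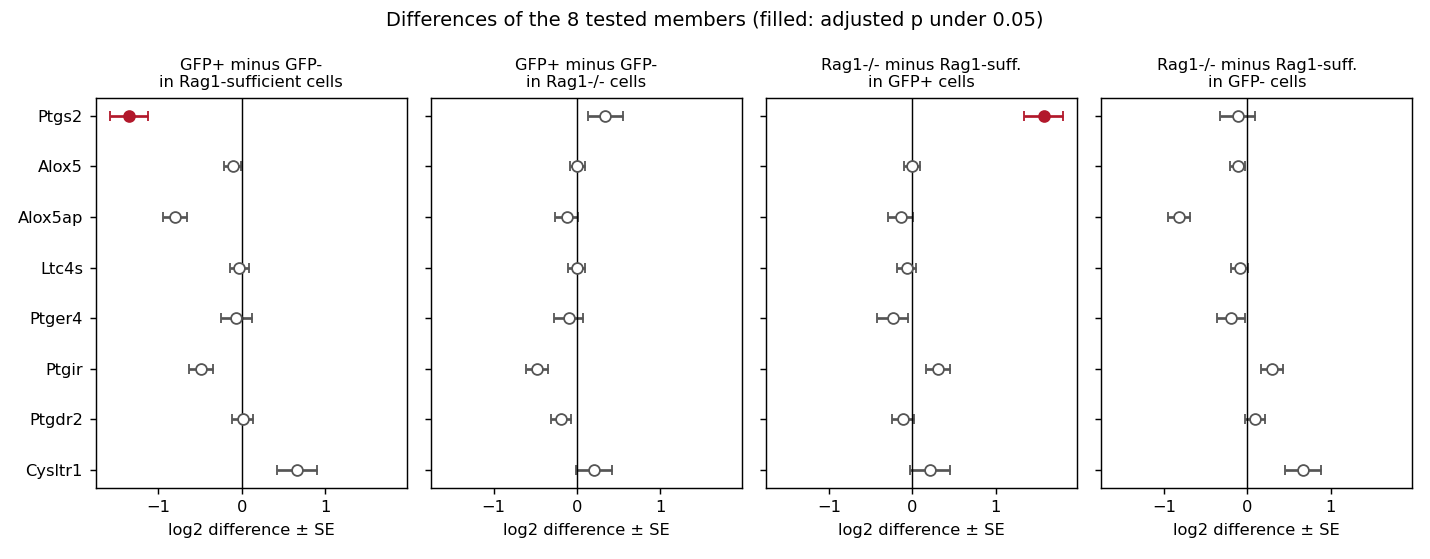
Log2 differences ± SE of the 8 tested members in the 4 pairwise comparisons, with filled points where the adjusted p was under 0.05. The filled points are Ptgs2 in Rag1-sufficient cells (-1.35, GFP+ minus GFP-) and in GFP+ cells (1.58, Rag1-/- minus Rag1-sufficient).

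In sorted bulk samples, fewer cells of a type and less RNA per cell cannot be told apart. For Ptgs2, the array with its highest value, Rag1-/- GFP+ replicate 2 at 398, had a mast marker sum of 1475 and Cpa3 at 19.9, close to the Rag1-sufficient GFP+ arrays, where Ptgs2 was 124 and 110. On the other Rag1-/- GFP+ array, with a mast sum of 5046, it was 310.

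Other marker lists also differed in the comparisons that called Ptgs2. Although the sort took CD3- cells and Rag1-/- mice lack T cells, 5 T cell markers summed to 2801 to 5717 in Rag1-/- GFP+ cells against 1730 to 2172 in Rag1-sufficient GFP+ cells. There 1 of the 5 was called, Cd3e, at means of 1372 and 195, while Cd8a averaged 58.0 and 59.3. Between Rag1-sufficient GFP+ and GFP- cells the T markers went both ways: Cd3g averaged 1587 and 912, Cd3e 195 and 254, 3 of 5 differences were negative, the median was -0.13 and 0 were called by limma (0 with an unadjusted p under 0.05).

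Markers of NK cells and ILC1, 5 in all, summed to 789 to 917 in Rag1-sufficient GFP+ cells against 408 to 525 in GFP- cells. The defining markers Ncr1, Eomes and Klrb1c averaged under the filter limit in both, so the sums were mostly Tbx21 and Ifng, the 2 tested, with a median difference of 1.07 (0 called by limma, 1 with an unadjusted p under 0.05). In Rag1-/- GFP+ cells the sum was 470 to 1329. Keratinocyte markers summed to 656 to 795 in Rag1-/- GFP+ cells against 1174 to 1215 in Rag1-sufficient GFP+ cells, with 6 of 7 differences negative and a median of -0.78 (0 called by limma, 3 with an unadjusted p under 0.05). In Rag1-sufficient cells all 7 were negative for GFP+ minus GFP-, with a median of -0.66 (0 called, 2 with an unadjusted p under 0.05). All 5 tested dendritic and Langerhans cell markers were lower in Rag1-sufficient GFP+ than GFP- cells, with a median of -0.59. Of these, 1 was called by limma and 4 had an unadjusted p under 0.05. In the Rag1 comparison of GFP+ cells 2 of 5 were negative (median 0.04, 0 called, 2 with an unadjusted p under 0.05). Of 11 ILC markers, 6 and 7 were negative in these 2 comparisons (0 called, 5 and 2 with an unadjusted p under 0.05). Over all 17445 probe sets, 2264 and 1190 had an unadjusted p under 0.05 in the same comparisons (limma). The part of mast, T, NK, keratinocyte, dendritic cell or ILC transcripts in the Ptgs2 differences was not tested.

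The 250 bases upstream of the Ptgs2 start site are shown because Ptgs2 carries both calls. They lie at chr1:150099781-150100030 on the plus strand of GRCm38.p6 and come from RefSeq. The capitals mark TTGCGCAA, a palindrome bound by C/EBP factors that reads the same on both strands, at 69 to 62 bases before the start.
Ptgs2: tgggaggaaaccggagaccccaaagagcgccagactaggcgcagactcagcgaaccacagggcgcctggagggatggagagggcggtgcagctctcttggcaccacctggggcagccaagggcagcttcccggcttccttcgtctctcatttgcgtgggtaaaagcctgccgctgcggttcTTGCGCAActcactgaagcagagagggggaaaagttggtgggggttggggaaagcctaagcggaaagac
The window is 61.6% G and C, beside a median of 52.4% over all windows of this length. The palindrome was present in 54 of 32851 such windows (0.164%), and among the 8 members with an entry in the promoter table (all but Alox5ap and Cysltr1) Ptgs2 was the 1 that held it. The match describes the letters of this window and was not tied to any measurement here.

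Hpgds encodes the haematopoietic prostaglandin D2 synthase, which acts next after cyclooxygenase. Its intensity was 29.8 and 35.2 on the Rag1-/- GFP+ arrays, 39.3, 30.8 and 43.6 on the Rag1-/- GFP- arrays, 35.0 and 30.6 on the Rag1-sufficient GFP+ arrays and 53.8 and 65.4 on the Rag1-sufficient GFP- arrays. The Rag1-sufficient GFP- arrays lay above all others, and the other 3 groups overlapped. With no filter, the GFP+ minus GFP- difference in Rag1-sufficient cells was -0.84 ± 0.17 (SE) with an adjusted p of 0.101, where 0.486% of all probe sets were called, and Rag1-/- minus Rag1-sufficient in GFP- cells was -0.65 ± 0.15 with an adjusted p of 0.159. In the other 2 pairwise comparisons the differences were -0.21 ± 0.15 (Rag1-/- cells, GFP+ minus GFP-) and -0.01 ± 0.17 (GFP+ cells, Rag1-/- minus Rag1-sufficient).

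Alox5ap, which encodes FLAP, had its highest values on the same arrays. It measured 56.1 and 42.0 on the Rag1-/- GFP+ arrays and 48.7, 54.0 and 56.8 on the Rag1-/- GFP- arrays, against 56.8 and 50.7 on the Rag1-sufficient GFP+ arrays and 101 and 88.1 on the Rag1-sufficient GFP- arrays. Only the Rag1-sufficient GFP- arrays stood clear, at a mean of 94.5 ± 9.03 (SD, n = 2), while the other 3 group means lay between 49.1 and 53.7. GFP+ minus GFP- in Rag1-sufficient cells was -0.80 ± 0.15 (SE) with an adjusted p of 0.0542, and Rag1-/- minus Rag1-sufficient in GFP- cells was -0.82 ± 0.13 with an adjusted p of 0.0677, both short of the threshold. In Rag1-/- cells, GFP+ minus GFP- was -0.12 ± 0.13 (adjusted p = 0.777), and the difference of the 2 gate effects was 0.68 ± 0.20 (adjusted p = 0.256). These Alox5ap values are near the threshold: 5 of 16 alternative settings put the gate difference in Rag1-sufficient cells past it, and 3 of 16 the Rag1 difference in GFP- cells.

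Alox5ap and Hpgds were both highest where the mast markers were highest. In Rag1-sufficient cells, all 10 tested mast markers were lower in GFP+ than in GFP- cells, with a median difference of -2.17. Of the 10, 8 were called by limma. In Rag1-/- cells 0 of 10 were called by limma and 6 had an unadjusted p under 0.05, with all 10 differences negative and a median of -0.71. In GFP- cells 0 of 10 were called between Rag1-/- and Rag1-sufficient and 7 had an unadjusted p under 0.05, again with all 10 negative and a median of -1.19. Over all 17445 probe sets, the unadjusted p (limma) was under 0.05 for 1098 in the Rag1-/- comparison and 3014 in the GFP- comparison. The levels did not run in parallel on every array. Alox5ap at 48.7 to 56.8 in Rag1-/- GFP- cells overlapped the 50.7 and 56.8 of Rag1-sufficient GFP+ cells, although the mast sums of those groups were 4967 to 6310 and 1025 to 1133. Macrophage markers summed to 494 to 561 on the Rag1-sufficient GFP- arrays and 389 to 434 on all others, but went both ways: in Rag1-sufficient GFP+ and GFP- cells Lyz2 averaged 74.0 and 126 and C1qb 63.7 and 41.8, and 3 of 5 differences were negative, with a median of -0.03. On the same arrays, against all others, dendritic and Langerhans cell markers summed to 1880 to 2281 against 730 to 1364, and keratinocyte markers to 1354 to 2754 against 656 to 1215. The dendritic sum there was mostly H2-Ab1, at a mean of 1689. Cd207, Flt3, Xcr1 and H2-Ab1 had their highest group mean there. Itgax averaged 90.0 there against 125 in Rag1-/- GFP+ and 109 in Rag1-/- GFP- cells, and Zbtb46 126 against 131 in Rag1-/- GFP- cells. The part of any of these cell types in the Alox5ap and Hpgds levels was not tested.

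**Figure D3:**
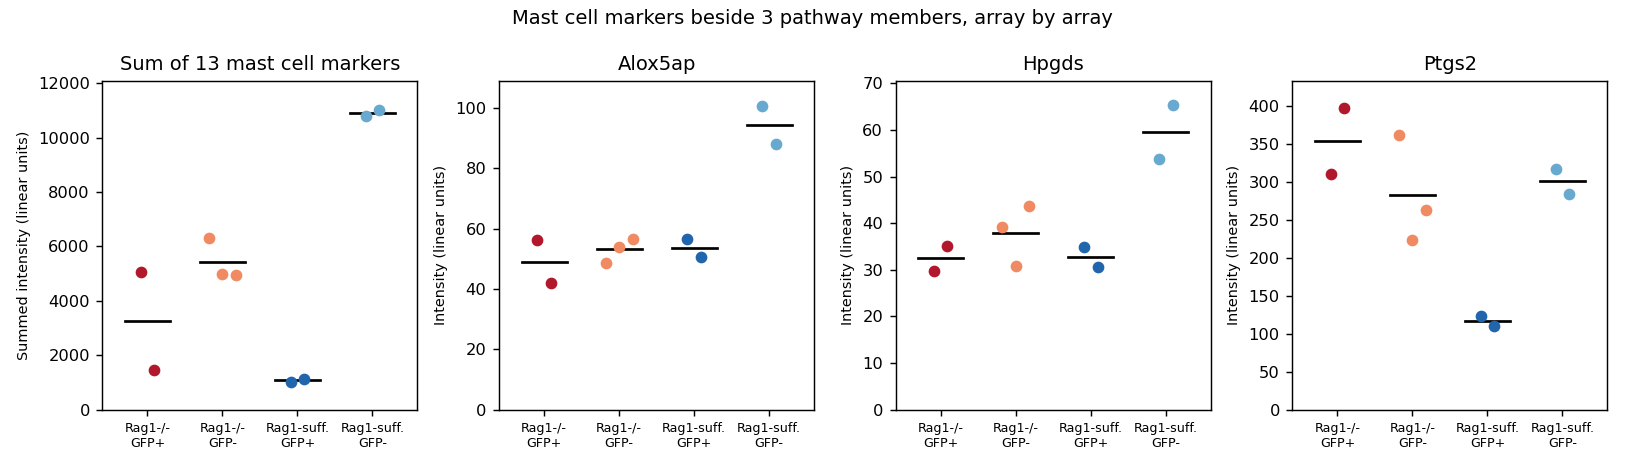
Summed intensity of 13 mast cell markers (left) beside the intensities of Alox5ap, Hpgds and Ptgs2, with 1 point per array and a line at the group mean, all on linear axes from 0. The mast sum is 10805 and 11001 on the Rag1-sufficient GFP- arrays, where Alox5ap and Hpgds are highest, whereas Ptgs2 reaches 398 on the Rag1-/- GFP+ array with a sum of 1475.

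Alox5, the 5-lipoxygenase itself, and Ltc4s, which joins glutathione to leukotriene A4 to make leukotriene C4, hardly varied. Alox5 averaged 52.7 ± 5.09 (SD, n = 2) in Rag1-/- GFP+, 52.4 ± 0.0195 (SD, n = 3) in Rag1-/- GFP-, 52.7 ± 0.872 (SD, n = 2) in Rag1-sufficient GFP+ and 57.0 ± 6.31 (SD, n = 2) in Rag1-sufficient GFP- cells. Ltc4s averaged 66.4 ± 10.7, 66.2 ± 2.13, 69.1 ± 1.84 and 70.6 ± 4.36 in the same order and with the same n. For both genes every group overlapped at least 1 other, and the 4 pairwise differences ran from -0.12 to 0.0050 for Alox5 and from -0.09 to -0.0040 for Ltc4s, with adjusted p-values of 0.522 and above. Equal values on several arrays, as for Alox5 at 52.4 on 2 of the Rag1-/- GFP- arrays, occurred in 50.0% of all probe sets, so the spread within groups may be understated.

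Among the receptors, Ptger4 encodes EP4, a prostaglandin E2 receptor. It measured 842 and 1036 on the Rag1-/- GFP+ arrays and 1187, 962 and 882 on the Rag1-/- GFP- arrays, against 1045 and 1158 on the Rag1-sufficient GFP+ arrays and 1111 and 1192 on the Rag1-sufficient GFP- arrays. These ranges overlapped in GFP+ against GFP- cells of both genotypes and in Rag1-/- against Rag1-sufficient GFP- cells, and in GFP+ cells the Rag1-/- arrays lay just below the Rag1-sufficient ones. The differences ran from -0.23 to -0.07, with adjusted p-values of 0.555 to 0.948. Ptgdr2, the prostaglandin D2 receptor CRTH2 that marks many group 2 ILCs, averaged 133 ± 11.8 (n = 2) in Rag1-/- GFP+ and 152 ± 15.7 (n = 3) in Rag1-/- GFP- cells, and 144 ± 2.05 and 142 ± 7.77 (n = 2 each) in Rag1-sufficient GFP+ and GFP- cells (SD). Its differences ran from -0.19 to 0.09, none past the threshold (adjusted p of 0.689 and above).

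Ptgir, the prostacyclin receptor, gave nearly the same GFP+ minus GFP- difference in both genotypes, and neither passed the test. It measured 278 and 230 on the Rag1-/- GFP+ arrays and 335, 357 and 363 on the Rag1-/- GFP- arrays, against 210 and 198 on the Rag1-sufficient GFP+ arrays and 288 and 284 on the Rag1-sufficient GFP- arrays. Within each genotype the GFP+ arrays lay below the GFP- arrays with no overlap. GFP+ minus GFP- was -0.48 ± 0.13 (SE) in Rag1-/- cells (adjusted p = 0.688) and -0.49 ± 0.14 in Rag1-sufficient cells (adjusted p = 0.201), and the 2 gate effects differed by 0.01 ± 0.20 (adjusted p = 0.986). Averaged over both genotypes the difference was -0.48 ± 0.10 with an adjusted p of 0.132. In that comparison 0 of 8 members and 0.212% of all probe sets were called by limma. The unadjusted p was under 0.05 for 4 members and for 1287 of all 17445 probe sets. Rag1-/- minus Rag1-sufficient was 0.31 ± 0.14 in the GFP+ and 0.30 ± 0.13 in the GFP- fraction (adjusted p of 0.743 and 0.293).

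Cysltr1, the first cysteinyl leukotriene receptor, ran opposite to Alox5ap, with its lowest values on the Rag1-sufficient GFP- arrays. It measured 1005 and 1398 on the Rag1-/- GFP+ arrays and 1164, 785 and 1195 on the Rag1-/- GFP- arrays, against 975 and 1068 on the Rag1-sufficient GFP+ arrays and 634 and 659 on the Rag1-sufficient GFP- arrays. The last 2 arrays lay below all others, and the first 3 groups overlapped. GFP+ minus GFP- was 0.66 ± 0.24 (SE) in Rag1-sufficient cells (adjusted p = 0.290) and 0.20 ± 0.22 in Rag1-/- cells (adjusted p = 0.782). Rag1-/- minus Rag1-sufficient was 0.67 ± 0.22 in GFP- cells (adjusted p = 0.208) and 0.22 ± 0.24 in GFP+ cells (adjusted p = 0.924).

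Averaged over both fractions, the Rag1-/- minus Rag1-sufficient difference was 0.73 ± 0.16 for Ptgs2 (adjusted p = 0.132), -0.48 ± 0.10 for Alox5ap (0.115), 0.44 ± 0.16 for Cysltr1 (0.420) and 0.30 ± 0.10 for Ptgir (0.338). None of the 8 members was called by limma in this average, where 0.086% of all probe sets were. The unadjusted p was under 0.05 for 4 members and for 1717 of all 17445 probe sets. Over the 9 arrays, the log2 gap between highest and lowest array was 1.84 for Ptgs2, 1.24 for Alox5ap, 1.14 for Cysltr1, 1.11 for Hpgds, 0.87 for Ptgir, 0.50 for Ptger4, 0.45 for Ptgdr2 and 0.32 for both Alox5 and Ltc4s. The members that varied most were therefore an inducible enzyme, a leukotriene cofactor, a leukotriene receptor and the prostaglandin D2 synthase.

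For the 3 tested members whose arrays spanned at least 1 log2 unit, the genes with the most similar pattern were found by the root mean square difference of mean-centred log2 values over the 9 arrays. Closest to Ptgs2 were Tyrobp, which encodes the signalling adaptor DAP12, at 0.25, Pde7b, a cyclic AMP phosphodiesterase, at 0.26 and Atp6v0a1, a proton pump subunit, at 0.27, beside 0.61 for a flat line. Tyrobp measured 144 and 239 on the Rag1-/- GFP+ arrays and 198, 181 and 190 on the Rag1-/- GFP- arrays, against 79.2 and 75.5 on the Rag1-sufficient GFP+ arrays and 187 and 228 on the Rag1-sufficient GFP- arrays. As with Ptgs2, the Rag1-sufficient GFP+ arrays lay below all others.

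Closest to Alox5ap were Slc45a3, a solute carrier, at 0.083, Wdfy4, at 0.12, and Tbc1d9, at 0.12, beside 0.38 for a flat line. Slc45a3 measured 114 and 95.1 on the Rag1-/- GFP+ arrays, 100 to 114 on the Rag1-/- GFP- arrays, 114 and 112 on the Rag1-sufficient GFP+ arrays and 184 and 185 on the Rag1-sufficient GFP- arrays. Closest to Cysltr1 were Mbip at 0.12, Cfap97 at 0.15 and Zfp949 at 0.16, beside 0.37 for a flat line. Mbip measured 233 and 350, then 218 to 381, then 266 and 272, and 168 and 175 in the same order of groups, with the Rag1-sufficient GFP- arrays lowest. These likenesses describe 9 arrays that share their groups, and no more is read from them.

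**Figure D4:**
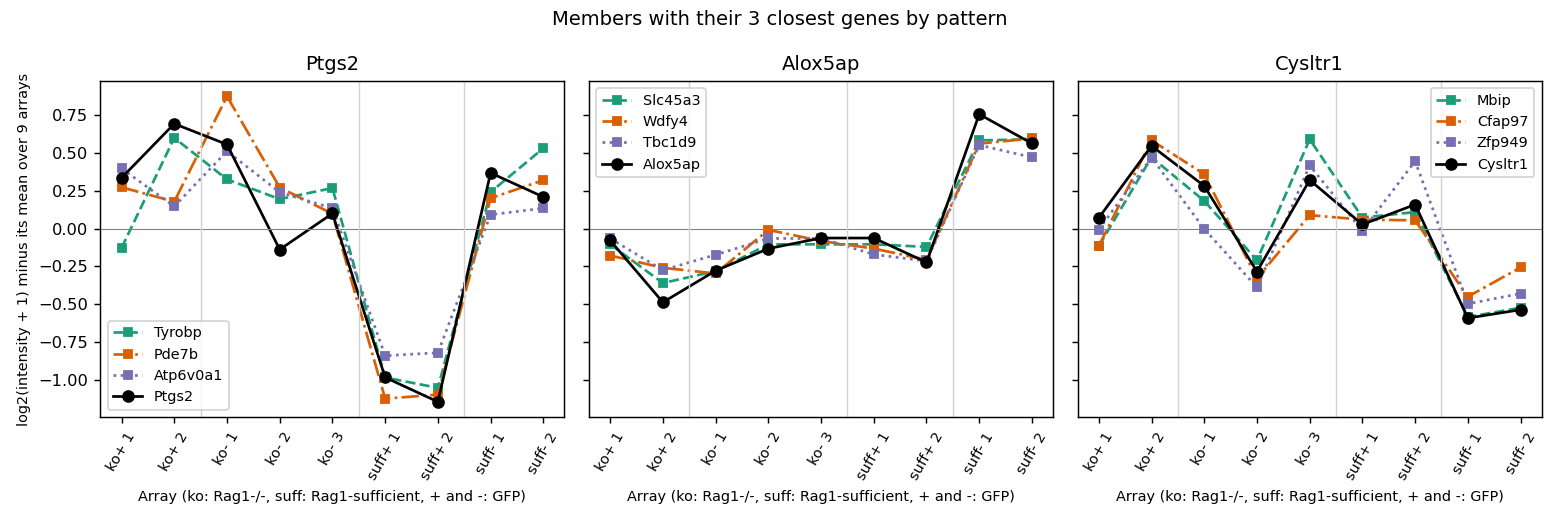
Log2(intensity + 1) minus its mean over the 9 arrays for Ptgs2, Alox5ap and Cysltr1 (black) and for the 3 genes closest to each, with the arrays along the axis grouped by genotype (ko, Rag1-/-; suff, Rag1-sufficient) and GFP fraction. Ptgs2 and its neighbours dip on the 2 Rag1-sufficient GFP+ arrays, Alox5ap and its neighbours rise on the Rag1-sufficient GFP- arrays, and Cysltr1 and its neighbours dip there.

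Beyond the members, 50 further genes of the pathway were listed by role, of which 46 were measured and 37 passed the filter. None of the 37 was called by limma in any of the 7 comparisons. The counts with an unadjusted p under 0.05 were 2 for GFP+ against GFP- in Rag1-sufficient cells, 5 in Rag1-/- cells, 3 for Rag1-/- against Rag1-sufficient in GFP+ cells and 6 in GFP- cells. In the averages over genotypes and over fractions and in the interaction they were 2, 6 and 7. Over all 17445 probe sets the limma counts, in the same order of comparisons, were 2264, 1098, 1190, 3014, 1287, 1717 and 2378. For these 37 genes the median differences in the 4 pairwise comparisons were 0.0003, 0.02, -0.03 and -0.06, beside 0.01, -0.0074, -0.02 and 0.0003 over all probe sets. Of the 37, 19, 20, 15 and 13 were positive.

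Cysltr2, the second cysteinyl leukotriene receptor, was the closest of them to the threshold, and its order resembled that of Cysltr1. It measured 318 and 295 on the Rag1-/- GFP+ arrays and 319, 256 and 261 on the Rag1-/- GFP- arrays, against 229 and 224 on the Rag1-sufficient GFP+ arrays and 135 and 154 on the Rag1-sufficient GFP- arrays. All Rag1-/- arrays lay above all Rag1-sufficient arrays. In GFP- cells Rag1-/- minus Rag1-sufficient was 0.94 ± 0.14 (SE) with an adjusted p of 0.0520, in GFP+ cells 0.43 ± 0.15 with 0.588, and GFP+ minus GFP- in Rag1-sufficient cells was 0.65 ± 0.15 with 0.121.

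Alox8, the 8-lipoxygenase, shared the low Rag1-sufficient GFP+ level of Ptgs2. It measured 138 and 139 on the Rag1-/- GFP+ arrays and 159, 160 and 172 on the Rag1-/- GFP- arrays, against 88.1 and 107 on the Rag1-sufficient GFP+ arrays and 198 and 150 on the Rag1-sufficient GFP- arrays. GFP+ minus GFP- in Rag1-sufficient cells was -0.82 ± 0.15 (SE) with an adjusted p of 0.0605, and Rag1-/- minus Rag1-sufficient in GFP+ cells was 0.51 ± 0.15 with 0.469. Both differences had the sign of those of Ptgs2, and neither passed the test.

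Ptger3, the prostaglandin E2 receptor EP3, was 79.0 and 113 on the Rag1-/- GFP+ arrays and 72.7, 69.7 and 72.0 on the Rag1-/- GFP- arrays, against 49.5 and 58.0 on the Rag1-sufficient GFP+ arrays and 69.7 and 62.5 on the Rag1-sufficient GFP- arrays. Its Rag1-/- minus Rag1-sufficient difference in GFP+ cells was 0.81 ± 0.16 (SE), adjusted p = 0.141. Lta4h, the hydrolase that makes leukotriene B4, differed by 0.61 ± 0.17 in GFP- cells (adjusted p = 0.171), with 548 to 667 on the Rag1-/- GFP- arrays against 369 and 400 on the Rag1-sufficient GFP- arrays. Neither passed the threshold, although the groups compared did not overlap.

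Cbr1, a carbonyl reductase that can act on prostaglandins, differed by 0.67 ± 0.28 in GFP- cells (Rag1-/- minus Rag1-sufficient, adjusted p = 0.267), and the secreted phospholipase Pla2g2d by -0.38 ± 0.08 (0.112). Hpgd, the enzyme that inactivates prostaglandins, differed by -0.13 ± 0.16 there (0.695). The genes with the highest mean in their role were Pla2g15, at 97.7, Ptges3, at 995, Abcc4, a prostaglandin exporter, at 96.4 and Ptger1, at 114. In the 4 pairwise comparisons Pla2g15, Abcc4 and Ptger1 had differences between -0.12 and 0.15, and Ptges3 between -0.14 and 0.37, all short of the threshold.

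**Figure D5:**
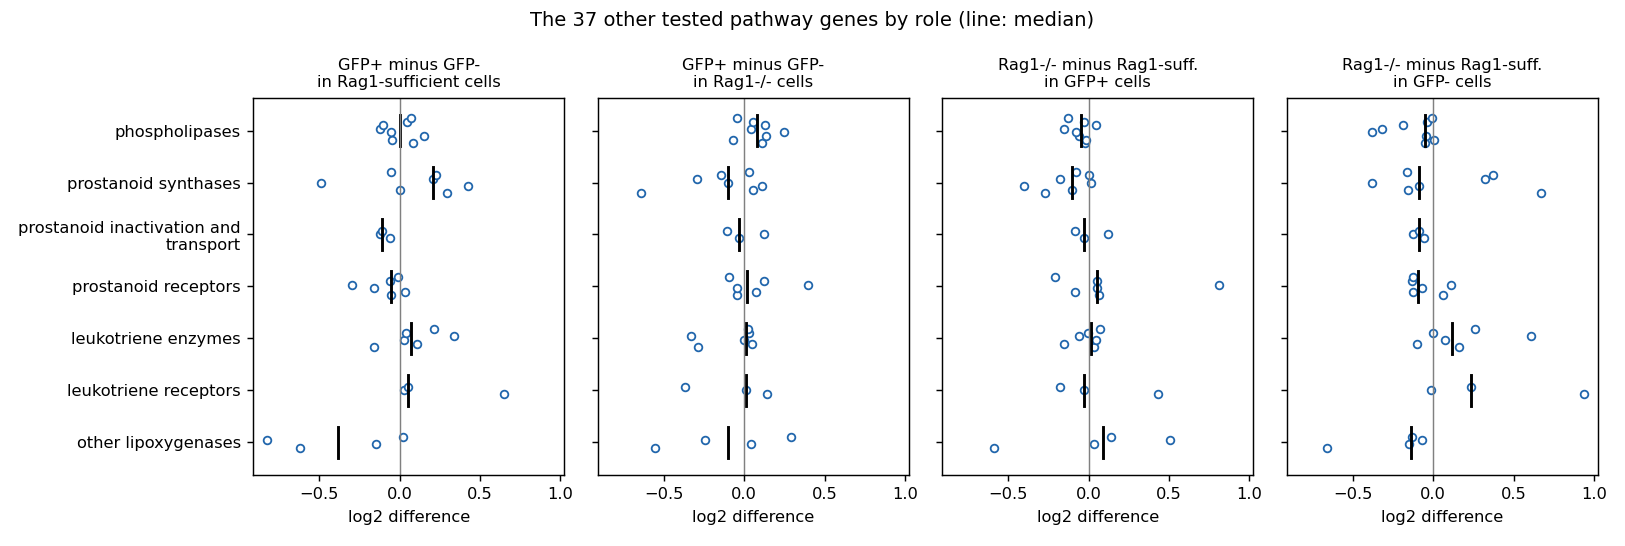
Log2 differences of the 37 other tested pathway genes in the 4 pairwise comparisons, with 1 open point per gene, rows by role and a line at each role's median. The points span -0.82 (Alox8, GFP+ minus GFP- in Rag1-sufficient cells) to 0.94 (Cysltr2, Rag1-/- minus Rag1-sufficient in GFP- cells), and none had an adjusted p under 0.05.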

How the data were processed

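RNA of 9 sorted skin ILC samples was measured on 1-colour Affymetrix arrays. The authors deposited 1 linear intensity per probe set and array. Per the labels, the hybridised material was biotinylated ssDNA. MAS5 appears in the submitters' processing notes, with no role or version. How arrays were normalized to each other, and the genome build, is not given in the sources used here. From the platform annotation, 21425 probe sets had 1 gene symbol, 1399 several and 2098 none, and those with 1 symbol were named. Ptgs1 was not analysed here, nor were 4 of the 50 listed pathway genes (Pla2g4b, Akr1b3, Ggt1 and Ltb4r2).

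Intensities were transformed to log2(value + 1), and the dimmest 30% of probe sets by mean log2 value were dropped, so that 17445 probe sets of 13924 genes were tested. With limma 3.58.1 in R 4.3.3, a model with 1 mean per group was fitted (lmFit, then eBayes with trend, on 5 residual plus 3.56 prior degrees of freedom). Two-sided p-values were adjusted over all 17445 probe sets by the Benjamini-Hochberg method, and the threshold was 0.05. The comparisons were GFP+ against GFP- in each genotype, Rag1-/- against Rag1-sufficient in each fraction, the average of each and the interaction. The model was also run on simulated data with independent normal noise of the fitted spread. Such data hold neither discordant arrays nor tied values, so that run cannot show how the model handles them.

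The members, the lists and the tests were chosen with earlier results of these data known. Beside the members, the rule named each other pathway gene past the threshold, for each role the gene with the highest mean and that with the largest pairwise difference, and the 3 genes closest in pattern to each tested member spanning at least 1 log2 unit. The brightest probe set stood for any other gene with more than 1. The alternatives were a pseudocount of 16, no filter, a 50% filter, quantile normalization, no trend, array weights, only the groups compared, a replicate block, and leaving out each array.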

Additional observations from a re-analysis of the deposited data

How the results depend on the processing

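With 2 or 3 arrays a group and many intensities near background, the data bound only large differences. Of 116 recomputed member counts, 85 matched the main count within 1.5 times and 31 did not. For GFP+ against GFP- in Rag1-sufficient cells (1 member called), 2 were called with a pseudocount of 16, 2 after quantile normalization, 3 with array weights, 0 with no filter and 0 with the replicate block, and 0 to 2 when single arrays were left out. For Rag1-/- against Rag1-sufficient in GFP+ cells (1 called), 0 were called with no filter, no intensity trend, array weights, the replicate block or only the groups compared, and 0 to 1 without single arrays. In GFP- cells (0 called), 1 was called with array weights and 0 to 1 without single arrays. For the gate averaged over genotypes and for the interaction (0 called each) it was 0 to 1 without single arrays. The members gained were Alox5ap and, in Rag1-sufficient cells with array weights, Ptgir (adjusted p = 0.0250). In Rag1-/- cells (GFP+ against GFP-) and for the average Rag1 difference 0 were called throughout. The cause of these shifts was not tested.

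The sources used here do not say whether equal replicate numbers mark paired samples. Same-numbered deviations correlated at -0.43 to 0.24 between groups. Between the GFP fractions the values were -0.10 in Rag1-/- and 0.08 in Rag1-sufficient cells. Each group gives only 1 such difference between replicates, so these values cannot decide whether the samples were paired. With the numbers as a replicate block, in which Rag1-/- GFP- replicate 3 adds nothing, the adjusted p of Ptgs2 was 0.0883 for the gate in Rag1-sufficient cells and 0.112 for Rag1 loss in GFP+ cells.

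Of the single members' values, 664 were alike in direction and call, 21 lost and 11 gained the call, and 29 reversed, all of these among values short of the threshold. After quantile normalization, Alox5 was -0.035 (gate, Rag1-/-) and 0.011 (Rag1 loss, GFP+), Ltc4s 0.0012 (gate, Rag1-sufficient) and Ptger4 0.030 (gate, Rag1-/-). Ltc4s (gate, Rag1-/-) was 0.017 with array weights and 0.0085 with the replicate block. Without single arrays, the gate difference in Rag1-sufficient cells ran from -0.22 to 0.0035 for Alox5, -0.091 to 0.033 for Ltc4s, -0.14 to 0.0085 for Ptger4 and -0.044 to 0.067 for Ptgdr2. In Rag1-/- cells it ran from -0.092 to 0.10 for Alox5, -0.33 to 0.080 for Alox5ap, -0.17 to 0.16 for Ltc4s, -0.25 to 0.048 for Ptger4 and -0.035 to 0.44 for Cysltr1. Rag1 loss in GFP+ cells ran from -0.10 to 0.093 for Alox5, -0.34 to 0.065 for Alox5ap, -0.23 to 0.10 for Ltc4s and -0.022 to 0.45 for Cysltr1, and in GFP- cells from -0.31 to 0.039 for Ptgs2. The Ptgir interaction ran from -0.13 to 0.15.

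Over all probe sets, the 140 calls for the gate in Rag1-sufficient cells became 1290 with array weights, 73 with the replicate block and 3 to 335 without single arrays. The 43 for Rag1 loss in GFP+ cells became 17 after quantile normalization, 3 without the trend, 2 with the block, 0 with only the groups compared and 1 to 135 without single arrays. The 25 in GFP- cells became 1168 with array weights, 43 with a pseudocount of 16, 9 with the 50% filter, 8 with only the groups compared 6 with the block and 1 to 139 without single arrays. The 0 calls of the interaction became 31 with array weights and 0 to 500 without single arrays, and the 0 for the gate in Rag1-/- cells became 0 to 7 without single arrays. The 37 for the average gate became 6 with the block and 0 to 136 without single arrays, and the 15 for the average Rag1 difference became 64 with array weights, 33 after quantile normalization, 5 with no filter, 9 with the block and 2 to 64 without single arrays.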
